A study of Homo sapiens with 6 samples.

Results

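The regulators of mitosis examined here are 58 genes for mitotic kinases, spindle checkpoint proteins, spindle and cytokinesis factors, chromosome structure proteins and the transcription factors FOXM1 and MYBL2. They were taken by gene symbol from a table of 19021 gene rows, and all 58 symbols were found. The cells were Huh7, an established line of human hepatocellular carcinoma whose genotype is labelled WT. Both groups were grown alike and differed in what was added for 24 h: DMSO, the solvent, or carfilzomib, a drug that blocks the chymotrypsin-like site of the proteasome. Each group had 3 libraries of RNA, and the sources used here give no carfilzomib dose. Whether each library is a culture of its own is not stated, so every p-value rests on library-to-library spread, which may be technical only.

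Most of these genes are transcribed late in the cell cycle, when a cell prepares its chromosomes and spindle for division. In resting and early-cycle cells the DREAM complex holds many of them silent, and later the MuvB core joins MYBL2 and FOXM1 to activate them. Both complexes act at a promoter element called the CHR, often near CCAAT boxes that bind the factor NF-Y. Many of the proteins are destroyed at the end of mitosis by the proteasome, after the anaphase-promoting complex (APC/C) has marked them with ubiquitin, so RNA levels say nothing direct about protein levels.

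The members' promoters are shown first. The genes were taken by symbol and not by these letters, but the CHR and CCAAT box are known from late cell cycle genes of this kind. Sequences are from RefSeq, build GRCh38.p14, and run 5′ to 3′ on the gene's strand from 150 bases before the gene start to 30 bases after it. Capitals mark the letters searched on both strands: TTTGAA or TTCGAA for the CHR, CCAAT for the CCAAT box, and TTTCGCGC, TTTGGCGC, TTTCCCGC or TTTGCCGC for an E2F site. The first 4 genes fell with carfilzomib, the next 3 rose, and CDCA5 did not pass the test. PLK1 lies at chr16:23678739-23678918 on the plus strand, MKI67 at chr10:128126394-128126573 on the minus strand, NUSAP1 at chr15:41332731-41332910 on the plus strand and LMNB1 at chr5:126776473-126776652 on the plus strand. CDC25A lies at chr3:48188388-48188567 on the minus strand, ANLN at chr7:36389712-36389891 on the plus strand, FZR1 at chr19:3506161-3506340 on the plus strand and CDCA5 at chr11:65084011-65084190 on the minus strand.
PLK1: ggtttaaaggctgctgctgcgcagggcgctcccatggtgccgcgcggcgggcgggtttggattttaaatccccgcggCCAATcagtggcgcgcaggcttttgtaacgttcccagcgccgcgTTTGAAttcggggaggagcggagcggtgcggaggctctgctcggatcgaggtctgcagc
MKI67: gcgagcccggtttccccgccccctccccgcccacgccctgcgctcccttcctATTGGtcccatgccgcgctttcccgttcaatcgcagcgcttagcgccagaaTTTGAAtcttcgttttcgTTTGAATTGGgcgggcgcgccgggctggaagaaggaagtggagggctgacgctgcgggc
NUSAP1: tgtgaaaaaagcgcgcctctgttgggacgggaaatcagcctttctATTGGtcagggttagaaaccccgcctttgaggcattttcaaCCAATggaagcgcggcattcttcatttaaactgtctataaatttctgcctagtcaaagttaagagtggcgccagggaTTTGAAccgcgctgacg
LMNB1: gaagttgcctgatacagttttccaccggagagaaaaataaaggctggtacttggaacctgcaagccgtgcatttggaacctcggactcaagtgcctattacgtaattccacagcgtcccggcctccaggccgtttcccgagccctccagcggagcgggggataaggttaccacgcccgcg
CDC25A: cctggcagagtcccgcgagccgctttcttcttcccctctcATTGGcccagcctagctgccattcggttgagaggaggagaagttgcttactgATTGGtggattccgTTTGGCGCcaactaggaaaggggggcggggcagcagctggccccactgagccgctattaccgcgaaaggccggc
ANLN: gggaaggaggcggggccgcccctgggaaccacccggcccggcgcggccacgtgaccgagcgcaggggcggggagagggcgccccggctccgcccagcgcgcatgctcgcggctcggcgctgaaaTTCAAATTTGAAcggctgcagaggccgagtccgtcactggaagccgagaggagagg
FZR1: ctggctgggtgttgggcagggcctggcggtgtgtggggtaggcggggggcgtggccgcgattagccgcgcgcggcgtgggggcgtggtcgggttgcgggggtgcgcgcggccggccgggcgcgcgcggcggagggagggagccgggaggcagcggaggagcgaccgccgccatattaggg
CDCA5: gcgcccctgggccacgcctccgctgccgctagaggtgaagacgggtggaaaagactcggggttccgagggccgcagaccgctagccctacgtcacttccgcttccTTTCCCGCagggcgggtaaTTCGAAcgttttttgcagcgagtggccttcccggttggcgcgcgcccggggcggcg

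PLK1 holds a CCAAT box starting 73 bases and a CHR starting 29 bases before the gene start. MKI67 holds 2 CHR matches, and the second runs by 1 base into a CCAAT box on the opposite strand. ANLN, which rose, holds 2 adjoining CHR matches on opposite strands, and LMNB1, which fell most, holds no match to any of the letters. CDC25A, which also rose, has 2 CCAAT boxes and an E2F match but no CHR, and CDCA5 has an E2F match and a CHR. FZR1 has no match in the stretch shown, and its single CHR match starts 226 bases before the gene start.

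Library totals and reads per gene were recovered from the FPKM values. The totals were 38386581 to 39651170 reads, and the members held 352 to 18435 reads in any library. Counting error thus weighs most on the low genes such as PKMYT1. Hepatocyte markers identify the cells: albumin (ALB) stood at 2799, 2664 and 2636 FPKM with DMSO and 1120, 1077 and 1072 FPKM with carfilzomib. Of the 10 hepatocyte markers 8 fell and 1, KRT18, rose, beside 44.9% lower and 36.7% higher among all tested genes. The markers' summed level was 11968 to 12244 FPKM with DMSO and 7009 to 7102 FPKM with carfilzomib. Their part in the results below was not tested. The immune markers PTPRC and CD14 summed to 1.29 to 1.34 FPKM with DMSO and 0.268 to 0.436 FPKM with carfilzomib, with PTPRC at 0 in 2 libraries. The 3 fibroblast markers summed to 6.13 to 6.53 FPKM and 3.56 to 3.85 FPKM, nearly all of it COL1A2. The 3 endothelial markers summed to 3.74 to 4.33 FPKM and 2.38 to 2.97 FPKM, nearly all of it PECAM1, with VWF at 0 in 2 libraries and CDH5 at 0 in 1.

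RNA of the mitotic regulators was lower in the carfilzomib libraries almost throughout. Together the 58 genes took 0.641%, 0.642% and 0.650% of the recovered reads in the DMSO libraries and 0.330%, 0.338% and 0.323% in the carfilzomib libraries. The mean share was 0.644% ± 0.00462 (SD, n = 3) with DMSO and 0.330% ± 0.00746 (SD, n = 3) with carfilzomib, a ratio of 0.513, and the groups did not overlap. In bulk RNA, fewer cells in mitosis and less of these RNAs per cell cannot be told apart.

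Gene by gene, 54 of the 58 members (93.1%) fell in a limma fit of log2(FPKM + 1) over all tested genes, at an adjusted p under 0.05, against 44.9% of the 11153 genes tested. Only FZR1, ANLN and CDC25A rose (5.17%, against 36.7% of all tested genes), and CDCA5 had no call. The same 54 genes were lower in every carfilzomib library than in any DMSO library, an arrangement found in 45.4% of tested genes, and the 3 that rose were higher in every carfilzomib library, as were 37.4% of tested genes. The fall reached at least 2-fold on the log2(FPKM + 1) scale in 26 members (44.8%), against 7.84% of all tested genes. That count depends on the pseudocount, and was 12 with 5 FPKM added and 30 with 0.1 FPKM added. Without any pseudocount, the mean FPKM was at least halved in 30 members, against 12.3% of all tested genes. Counts of 2-fold falls below are on the log2(FPKM + 1) scale unless mean FPKM is named. Counts by role below are read beside the shares of all tested genes, 44.9% lower, 36.7% higher and 7.84% at least 2-fold lower. The median log2 difference was -0.94 over the members and -0.07 over all tested genes, and 32 members (55.2%) lay among the 10% of tested genes with the lowest differences.

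**Figure D1:**
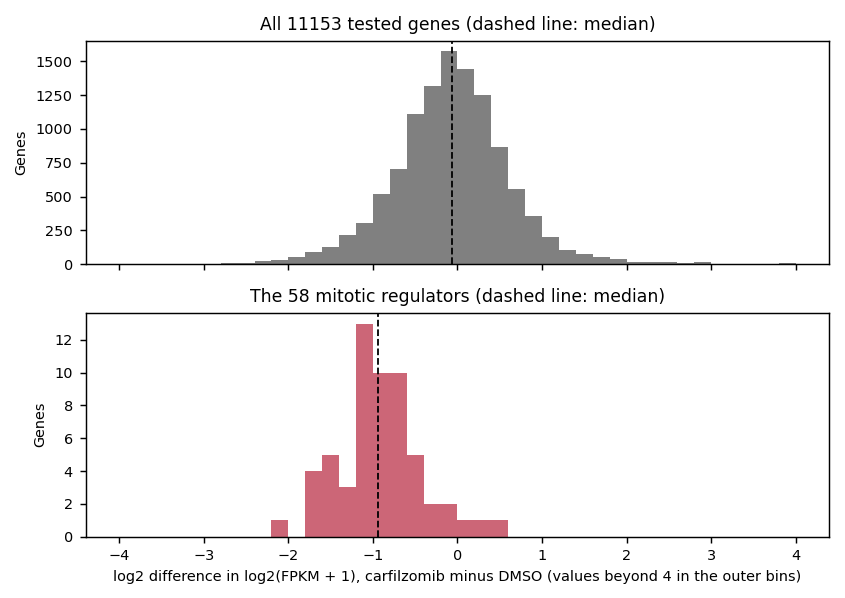
Histograms of the log2 difference in log2(FPKM + 1), carfilzomib minus DMSO, for all 11153 tested genes (top) and the 58 mitotic regulators (bottom), with the number of genes on the vertical axes and dashed lines at the medians. The median of all genes is -0.07 and that of the mitotic regulators is -0.94, and 55 of the 58 lie below 0 (CDCA5, at -0.08, among them without a call, and at 0.01 with median-of-ratios scaling).

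**Figure D2:**
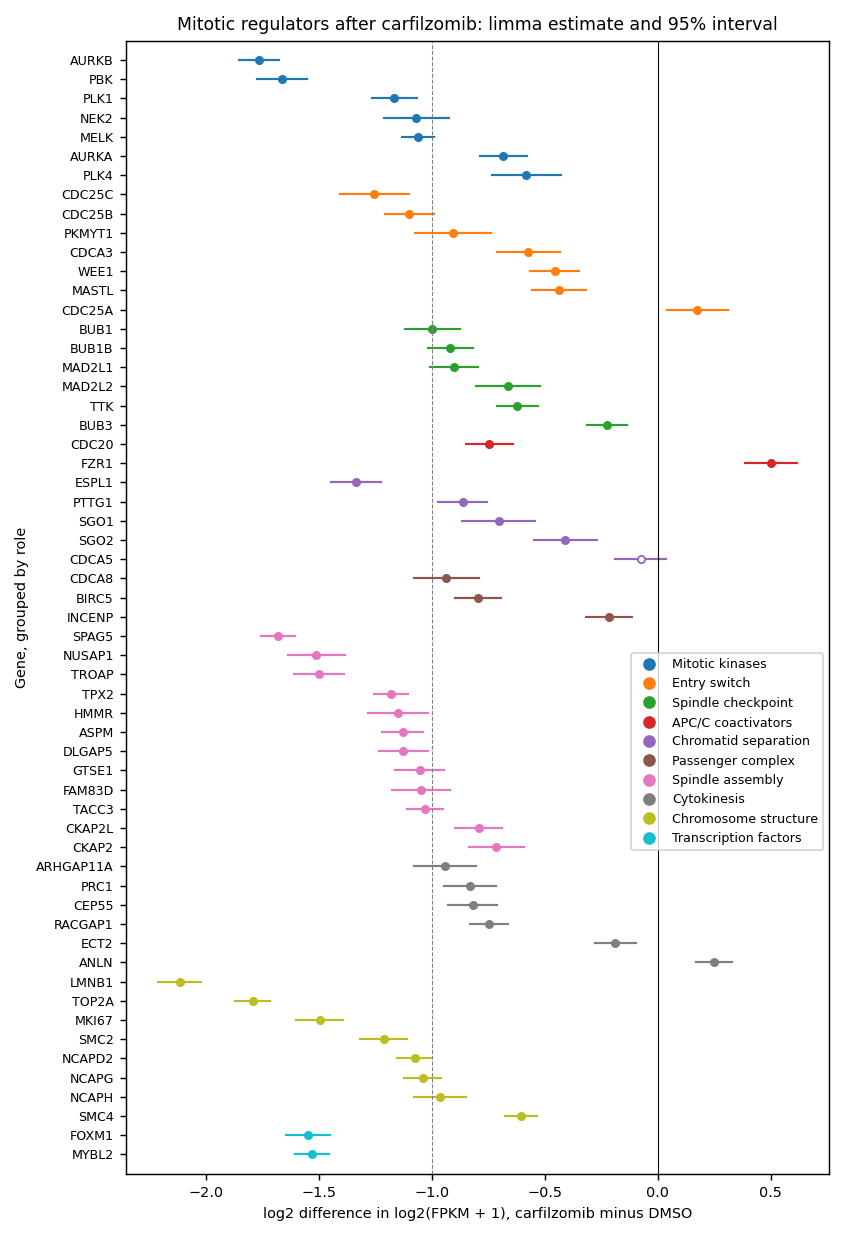
Log2 difference (carfilzomib minus DMSO, horizontal axis) of each mitotic regulator, grouped and coloured by role, with points for the limma estimate and lines for its 95% interval; the dashed line marks a 2-fold fall and the open point is CDCA5, which had no call and moved to 0.01 with median-of-ratios scaling. Estimates run from -2.12 for LMNB1 to 0.50 for FZR1, and spindle assembly and chromosome structure genes lie mostly beyond the dashed line.

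The switch into mitosis is set by opposing enzymes on CDK1: WEE1 and PKMYT1 add inhibitory phosphates and the CDC25 phosphatases remove them. Of the 7 entry genes 6 fell and 1 rose, beside 44.9% lower and 36.7% higher among all tested genes. The median log2 difference of the 7 was -0.57. CDC25C stood at 10.1, 11.3 and 12.4 FPKM with DMSO and 4.05, 4.33 and 4.03 FPKM with carfilzomib (log2 difference -1.25, SE 0.0674, adjusted p = 6.25e-08). CDC25B, which acts early in mitotic entry, was at 34.3, 32.8 and 33.1 FPKM with DMSO and 13.9, 15.7 and 15.6 FPKM with carfilzomib (-1.10, SE 0.0476, adjusted p = 1.31e-08). For both phosphatases every carfilzomib library lay below every DMSO library.

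CDC25A, the phosphatase that also drives entry into S phase, went the other way. It stood at 12.2, 13.0 and 13.8 FPKM with DMSO and 14.2, 16.1 and 14.1 FPKM with carfilzomib, so the highest DMSO and lowest carfilzomib libraries were close without overlapping. The log2 difference was 0.17 (SE 0.0601, adjusted p = 0.0217), and the call was lost without DMSO replicate 1 (0.13, adjusted p = 0.0749) or without carfilzomib replicate 2 (0.12, adjusted p = 0.0829). CDC25A thus changed little beside CDC25C, and its FPKM ratio to CDC25C was 1.21, 1.15 and 1.11 in the DMSO libraries and 3.51, 3.73 and 3.5 in the carfilzomib libraries. The log2 ratio of FPKM + 1 rose by 1.43 with no overlap, and the exact permutation p was 0.1, the smallest that 20 assignments of 3 against 3 libraries can give (adjusted p = 0.143 over 10 pairs). No pair could therefore pass 0.05. For every pair the log2 ratio is that of FPKM + 1, so it differs from the log2 of the FPKM ratios printed beside it. CDC25B kept closer to CDC25C: that log2 ratio differed by 0.15 with overlapping groups (exact permutation p = 0.3, adjusted p = 0.333). The difference was 0.08 without DMSO replicate 3 and 0.24 without DMSO replicate 1. It was -0.11 when 5 FPKM was added and 0.28 when 0.1 FPKM was added (exact permutation p = 0.1). Without any pseudocount the FPKM ratio was 3.39, 2.90 and 2.67 with DMSO and 3.44, 3.62 and 3.87 with carfilzomib, without overlap.

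The inhibitory kinases fell as well. WEE1 was at 15.5, 16.5 and 15.7 FPKM with DMSO and 10.6, 11.5 and 11.9 FPKM with carfilzomib (log2 difference -0.46, SE 0.0483, adjusted p = 1.01e-05). PKMYT1, the membrane-bound relative of WEE1, was at 9.06, 7.51 and 7.89 FPKM with DMSO and 4.24, 3.88 and 3.53 FPKM with carfilzomib (-0.91, SE 0.0754, adjusted p = 1.63e-06). Groups did not overlap for either gene, and the mean FPKM ratio of WEE1 to PKMYT1 was 1.97 with DMSO and 2.95 with carfilzomib (log2 ratio of FPKM + 1 higher by 0.45, no overlap, exact permutation p = 0.1, adjusted p = 0.143). With 5 FPKM added that difference was 0.21 (exact permutation p = 0.2). MASTL, the Greatwall kinase that restrains the phosphatase PP2A during mitosis, fell by 0.44 on the log2 scale (adjusted p = 2.66e-05). CDCA3, a protein linked to the turnover of WEE1, fell by 0.57 (adjusted p = 1.16e-05).

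**Figure D3:**
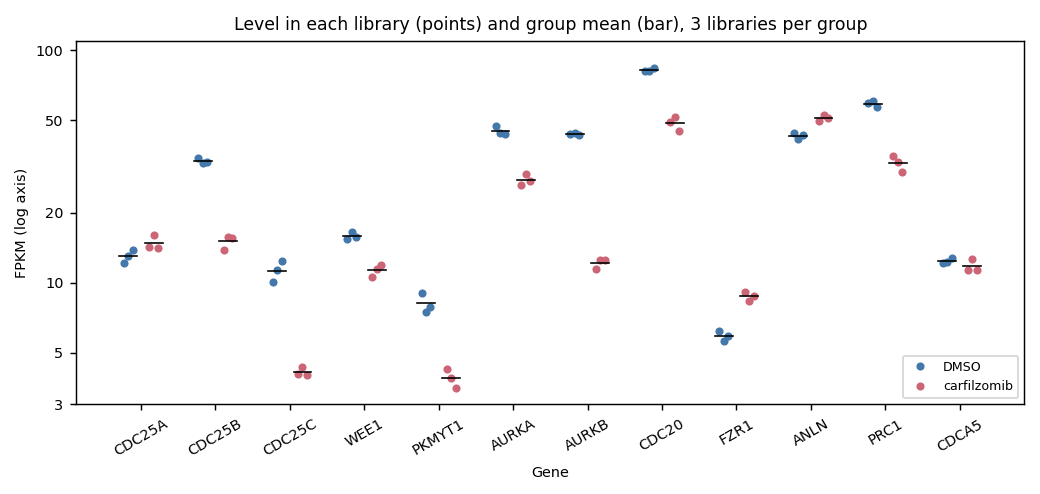
FPKM (log axis) of 12 mitotic regulators in each library, with blue points for DMSO, red points for carfilzomib and bars for group means of 3 libraries. CDC25A, FZR1 and ANLN are higher with carfilzomib, CDCA5 overlaps between the groups (12.2 to 12.8 against 11.3 to 12.7 FPKM, with a difference of 0.01 under median-of-ratios scaling), and the other genes are lower in every carfilzomib library.

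All 7 mitotic kinases fell, 5 of them at least 2-fold, with a median log2 difference of -1.07. AURKB, the kinase of the chromosomal passenger complex, was at 43.8, 43.9 and 43.4 FPKM with DMSO and 11.5, 12.5 and 12.5 FPKM with carfilzomib (log2 difference -1.77, SE 0.0393, adjusted p = 2.09e-10). PBK, a kinase active in mitotic cells, was at 28.6, 28.5 and 26.0 FPKM with DMSO and 8.53, 7.90 and 7.76 FPKM with carfilzomib (-1.66, SE 0.0501, adjusted p = 1.2e-09). For both genes the groups lay far apart, with little spread inside either.

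AURKA, the Aurora kinase of centrosomes and spindle poles, had a smaller fall. It was at 47.3, 43.9 and 43.7 FPKM with DMSO and 26.3, 29.3 and 27.3 FPKM with carfilzomib (log2 difference -0.68, SE 0.0470, adjusted p = 3.92e-07). Both Aurora genes were at near equal levels with DMSO, where the FPKM ratio of AURKA to AURKB was 1.08, 1.0 and 1.01, whereas with carfilzomib it was 2.29, 2.35 and 2.18. The log2 ratio of FPKM + 1 rose by 1.08 with no overlap (exact permutation p = 0.1, adjusted p = 0.143).

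PLK1, the Polo kinase of mitotic entry, spindle assembly and cytokinesis, was at 46.8, 48.5 and 49.8 FPKM with DMSO and 22.3, 20.7 and 20 FPKM with carfilzomib (log2 difference -1.17, SE 0.0446, adjusted p = 5.64e-09). PLK4, which starts centriole duplication, was at 7.31, 8.59 and 7.93 FPKM with DMSO and 4.75, 5.44 and 4.73 FPKM with carfilzomib (-0.58, SE 0.0679, adjusted p = 2.11e-05). PLK1 had the larger fall, and its mean FPKM ratio to PLK4 went from 6.11 to 4.25 with no overlap (log2 ratio of FPKM + 1 lower, at -0.58, exact permutation p = 0.1, adjusted p = 0.143). NEK2, which separates centrosomes, fell by 1.07 on the log2 scale (adjusted p = 1.4e-07), and MELK, a kinase of proliferating cells, fell by 1.06 (adjusted p = 1.06e-09).

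The 12 spindle assembly genes all fell, 10 of them at least 2-fold, with a median log2 difference of -1.13. SPAG5 (astrin), which holds spindle microtubules at kinetochores, was at 50, 50.1 and 51.0 FPKM with DMSO and 14.6, 15.1 and 15.4 FPKM with carfilzomib (-1.68, SE 0.0339, adjusted p = 1.08e-10). NUSAP1, a microtubule-bundling protein, was at 48.7, 49.1 and 47.6 FPKM with DMSO and 16.6, 17.8 and 14.8 FPKM with carfilzomib (-1.51, SE 0.0565, adjusted p = 4.82e-09). Carfilzomib libraries of both genes lay far below the DMSO libraries. TPX2, the activator of AURKA on spindle microtubules, had the highest DMSO level of all members, 89.1 ± 0.838 FPKM (SD, n = 3), and fell to 38.8 ± 1.42 FPKM (-1.18, adjusted p = 7.83e-10).

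The other spindle genes fell by amounts from -1.50 to -0.71 on the log2 scale. TROAP, which binds microtubules, had a log2 difference of -1.50, HMMR of -1.15, the spindle pole protein ASPM of -1.13, and DLGAP5 (HURP), which stabilises kinetochore microtubules, of -1.13. GTSE1 and FAM83D, which brings casein kinase to the spindle, both had -1.05, and TACC3, a partner of clathrin on kinetochore fibres, had -1.03. The smallest falls belonged to the microtubule-binding pair CKAP2 and CKAP2L. CKAP2 was at 18.6, 21.0 and 18.7 FPKM with DMSO and 11.3, 12.0 and 10.9 FPKM with carfilzomib, and CKAP2L was at 12.8, 13.0 and 13.5 FPKM and at 6.92, 7.54 and 7.02 FPKM. Their log2 differences were -0.71 and -0.79, and the ratio between them did not separate the groups (difference 0.08, exact permutation p = 0.4, adjusted p = 0.4).

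The chromosomal passenger complex joins AURKB with INCENP, BIRC5 (survivin) and CDCA8 (borealin), and its members fell unequally. CDCA8 was at 24.1, 22.5 and 21.4 FPKM with DMSO and 10.4, 12.4 and 11.4 FPKM with carfilzomib (log2 difference -0.94, SE 0.0640, adjusted p = 3.76e-07). BIRC5 was at 28.8, 30 and 28.2 FPKM with DMSO and 17.1, 15.3 and 16.5 FPKM with carfilzomib (-0.80, SE 0.0455, adjusted p = 9.85e-08). INCENP, the scaffold, fell by 0.22 on the log2 scale (adjusted p = 0.00136), from 12.1 ± 0.620 to 10.3 ± 0.116 FPKM (SD, n = 3), and by 0.13 with median-of-ratios scaling (adjusted p = 0.0173). Carfilzomib means were thus 84.9% of the DMSO mean for INCENP, 56.2% for BIRC5, 50.2% for CDCA8 and 27.8% for the kinase AURKB.

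The spindle checkpoint delays anaphase until all kinetochores are attached, by having MAD2L1, BUB1B and BUB3 hold CDC20. All 6 checkpoint genes fell, none by 2-fold on the log2(FPKM + 1) scale though 1, BUB1, had its mean FPKM halved, with a median log2 difference of -0.78. BUB1, a kinetochore kinase, was at 26.8, 25.3 and 27.7 FPKM with DMSO and 13.0, 13.7 and 11.9 FPKM with carfilzomib (-1.0, SE 0.0540, adjusted p = 6.59e-08). BUB1B was at 28.0, 28.6 and 27.2 FPKM with DMSO and 14.8, 14.7 and 13.5 FPKM with carfilzomib (-0.92, SE 0.0435, adjusted p = 2.45e-08). The 2 genes had similar levels in both groups, and the change in their log2 ratio was -0.08 with overlapping groups (exact permutation p = 0.3, adjusted p = 0.333).

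MAD2L1 was at 17.3, 16.2 and 17.3 FPKM with DMSO and 8.82, 8.83 and 8.14 FPKM with carfilzomib (-0.90, SE 0.0469, adjusted p = 4.85e-08). MAD2L2, a relative known mainly for its part in DNA repair, was at 13.7, 12.4 and 12.6 FPKM with DMSO and 7.29, 7.43 and 8.57 FPKM with carfilzomib (-0.67, SE 0.0630, adjusted p = 4.33e-06). The log2 ratio of MAD2L1 to MAD2L2 fell by 0.24 without overlap (exact permutation p = 0.1, adjusted p = 0.143), and carfilzomib replicate 3, with the lowest MAD2L1 and the highest MAD2L2, was farthest from DMSO. Without that library the difference was -0.14. TTK (MPS1), the kinase that starts the checkpoint signal, fell by 0.62 (adjusted p = 2.85e-07), and BUB3 fell by 0.23 (adjusted p = 0.000387), or by 0.14 with median-of-ratios scaling (adjusted p = 0.00971).

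CDC20 and FZR1 (CDH1) are the exchangeable activators of the APC/C, CDC20 in early mitosis and FZR1 from late mitosis through the next interphase, and they changed in opposite directions. CDC20 was at 81.3, 81.5 and 84.1 FPKM with DMSO and 49.4, 51.7 and 45.2 FPKM with carfilzomib (log2 difference -0.75, SE 0.0461, adjusted p = 1.79e-07). FZR1 was at 6.21, 5.62 and 5.89 FPKM with DMSO and 9.13, 8.38 and 8.81 FPKM with carfilzomib (0.50, SE 0.0517, adjusted p = 8.27e-06), the largest rise among the members. The FPKM ratio of CDC20 to FZR1 was 13.1, 14.5 and 14.3 in the DMSO libraries and 5.41, 6.17 and 5.13 in the carfilzomib libraries. The log2 ratio of FPKM + 1 fell by 1.25 with no overlap (exact permutation p = 0.1, adjusted p = 0.143), and CDC20 stayed the more abundant RNA per length in every library.

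At anaphase the protease ESPL1 (separase), freed from its inhibitor PTTG1 (securin), cuts cohesin, while SGO1 and SGO2 (shugoshins) and CDCA5 (sororin) guard cohesion before then. Of these 5 genes 4 fell, beside 44.9% of all tested genes, with a median log2 difference of -0.70 over the 5. ESPL1 was at 10.7, 10.7 and 10.4 FPKM with DMSO and 3.41, 3.60 and 3.8 FPKM with carfilzomib (-1.34, SE 0.0491, adjusted p = 4.36e-09). PTTG1 was at 62.1, 60.7 and 60.5 FPKM with DMSO and 33.4, 35.5 and 30.7 FPKM with carfilzomib (-0.86, SE 0.0479, adjusted p = 7.84e-08). Separase RNA thus fell to 33.9% of its DMSO mean, and securin RNA to 54.3%.

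SGO1 was at 6.74, 6.59 and 7.69 FPKM with DMSO and 3.81, 4.32 and 3.62 FPKM with carfilzomib (-0.70, SE 0.0719, adjusted p = 7.72e-06). SGO2 was at 7.58, 7.98 and 8.04 FPKM with DMSO and 5.84, 6.14 and 5.09 FPKM with carfilzomib (-0.41, SE 0.0628, adjusted p = 0.000162). The log2 ratio of SGO1 to SGO2 fell by 0.29 without overlap (exact permutation p = 0.1, adjusted p = 0.143), and by 0.16 with 5 FPKM added. CDCA5, the exception, was at 12.2, 12.3 and 12.8 FPKM with DMSO and 11.3, 12.7 and 11.3 FPKM with carfilzomib, and carfilzomib replicate 2 lay among the DMSO libraries. Its log2 difference was -0.08 (95% interval -0.19 to 0.04, adjusted p = 0.188), became 0.01 when libraries were rescaled by the median of ratios (adjusted p = 0.884), and passed as a fall without carfilzomib replicate 2 (-0.13, adjusted p = 0.0282).

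LMNB1 and TOP2A, with the largest falls of all members on the log2(FPKM + 1) scale, belong to the 8 genes of chromosome structure. All 8 fell, 6 of them at least 2-fold on that scale and 7 by mean FPKM. Their median log2 difference was -1.15, beside -1.54 for the transcription factors. LMNB1, the nuclear lamin B1, was at 36.8, 37.0 and 38.3 FPKM with DMSO and 7.83, 7.48 and 8.26 FPKM with carfilzomib (-2.12, SE 0.0420, adjusted p = 1.03e-10). TOP2A, the topoisomerase that untangles sister chromatids, was at 80.6, 78.8 and 77.5 FPKM with DMSO and 22.1, 22.8 and 21.3 FPKM with carfilzomib (-1.79, SE 0.0348, adjusted p = 9.62e-11). LMNB1 RNA thus fell to 21.0% of its DMSO mean, the lowest share among the members, and TOP2A RNA to 28.0%. MKI67, the proliferation marker that coats mitotic chromosomes, fell by 1.5 on the log2 scale (adjusted p = 1.29e-09), from 26.8 ± 1.36 to 8.84 ± 0.290 FPKM (SD, n = 3). The condensin I subunits, which compact chromosomes, had log2 differences of -1.21 for SMC2, -1.08 for NCAPD2, -1.04 for NCAPG and -0.96 for NCAPH. SMC4, the partner of SMC2 in the condensin ring, fell least of them (-0.61, adjusted p = 4.23e-08), and its mean level of 55.3 FPKM with DMSO and 36.0 FPKM with carfilzomib was above that of the other subunits in both groups.

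In cytokinesis, PRC1 bundles the central spindle, RACGAP1 and ECT2 activate RhoA at the cell equator, ARHGAP11A limits that activity, ANLN (anillin) scaffolds the contractile ring and CEP55 organises the final cut. Of these 6 genes 5 fell, beside 44.9% of all tested genes, with a median log2 difference of -0.78 over the 6. None fell by 2-fold on the log2(FPKM + 1) scale, though 1, ARHGAP11A, had its mean FPKM halved. ARHGAP11A was at 7.59, 7.96 and 8.36 FPKM with DMSO and 4.01, 3.4 and 3.63 FPKM with carfilzomib (-0.94, SE 0.0611, adjusted p = 2.57e-07). PRC1 was at 59.4, 60.5 and 56.8 FPKM with DMSO and 35.0, 33.1 and 30.1 FPKM with carfilzomib (-0.83, SE 0.0516, adjusted p = 1.83e-07). ARHGAP11A has a partial copy in the genome, and PTTG1 has close copies. The sources used here do not say how shared reads were handled, so both genes are uncertain.

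ANLN rose while its partners fell. It was at 44.1, 41.6 and 43.1 FPKM with DMSO and 49.7, 52.6 and 51.3 FPKM with carfilzomib, without overlap (0.25, SE 0.0348, adjusted p = 8.21e-05). ANLN ranked 15 among the members by DMSO level and 1 by carfilzomib level. ECT2, the RhoA activator, fell by 0.19 on the log2 scale (adjusted p = 0.00149) and by 0.10 with median-of-ratios scaling (adjusted p = 0.0381). CEP55 fell by 0.82 (adjusted p = 1.3e-07) and RACGAP1 fell by 0.75 (adjusted p = 3.67e-08).

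Both transcription factors of late cell cycle genes fell at least 2-fold. FOXM1 was at 33.8, 35.5 and 36.2 FPKM with DMSO and 11.6, 11.7 and 10.8 FPKM with carfilzomib (log2 difference -1.55, SE 0.0431, adjusted p = 7.51e-10). MYBL2 was at 74.8, 77.9 and 78.6 FPKM with DMSO and 25.4, 26.7 and 26.0 FPKM with carfilzomib (-1.53, SE 0.0336, adjusted p = 1.9e-10). Carfilzomib means were 32.4% of the DMSO mean for FOXM1 and 33.7% for MYBL2.

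**Figure D4:**
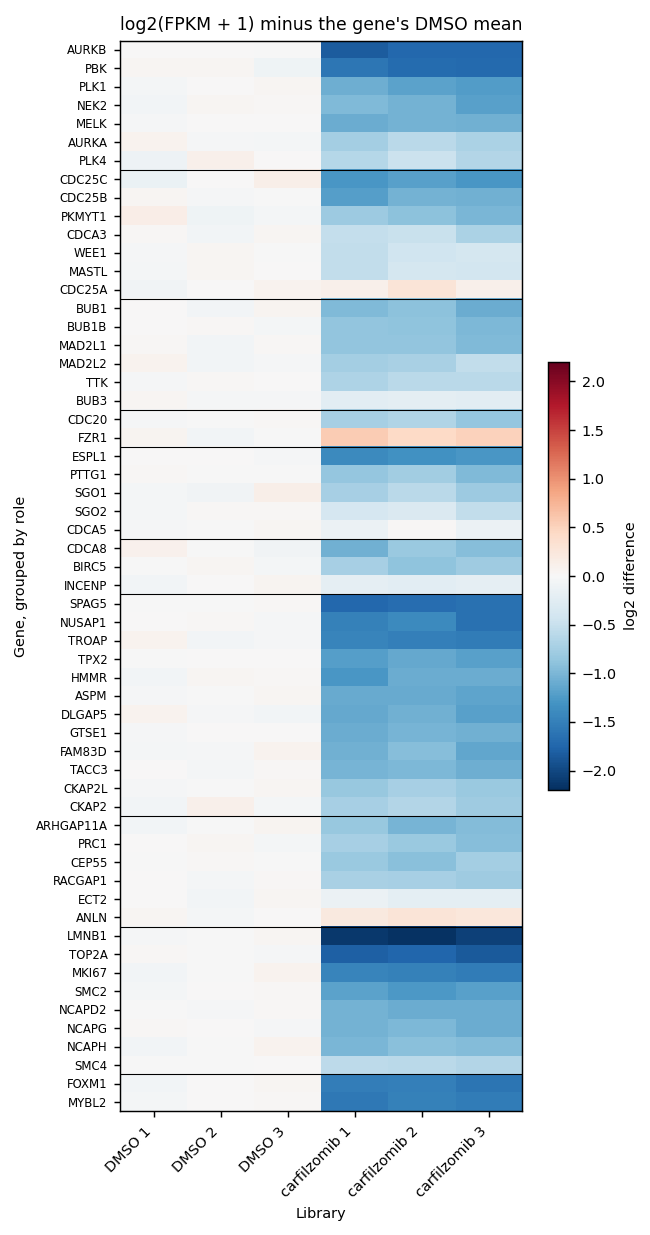
Log2(FPKM + 1) of the 58 mitotic regulators (rows, grouped by role) in each of the 6 libraries (columns), minus the gene's mean over the DMSO libraries, with blue for lower and red for higher values. The 3 carfilzomib columns are blue in nearly every row, from LMNB1 (mean -2.12) to ECT2 (mean -0.19), and red for FZR1, ANLN and CDC25A; CDCA5 (mean -0.08, or 0.01 with median-of-ratios scaling) is nearly white.

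The order of levels within the set changed with the treatment. LMNB1 went from rank 17 by DMSO level to rank 41 by carfilzomib level, while FZR1 went from 58, the lowest, to 37 and CDC25A from 41 to 19. Across the 58 genes the log2 difference was somewhat lower for genes with a higher DMSO level (Pearson r = -0.39, Spearman rho = -0.36), a description across genes that share the same libraries and enter both axes. The 1 FPKM added also understates falls of low genes, which works in the same direction. Libraries of a group differed little. Carfilzomib replicate 2 was the highest of its group in 32 of the 58 members (55.2%, against 33.1% of all tested genes), with a median log2 difference of 0.05 from the mean of the others, and carfilzomib replicate 3 was the lowest in 32 (55.2%, against 33.9%), with a median of -0.05. These shifts are small beside the members' median difference of -0.94.

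RefSeq promoter windows, from 250 bases before to 50 after the gene start, were matched to 46 of the 58 members and to 9050 tested genes. A CHR match was present in 31 of the 46 members (67.4%), against 11.5% of the tested genes and 16.6% of the 27305 genes with a window. A CCAAT box was present in 27 (58.7%), against 37.4% and 35.7%, and both kinds together in 21 (45.7%), against 4.99% and 6.58%. E2F letters were rare, with 3 members (6.52%) against 5.70% and 3.33%. Matches in the members lay near the gene start: 23.9% of them had a CHR match in the 25 bases before it, against 0.773% of tested genes, and 34.8% had a CCAAT box 51 to 75 bases before it, against 10.7%.

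**Figure D5:**
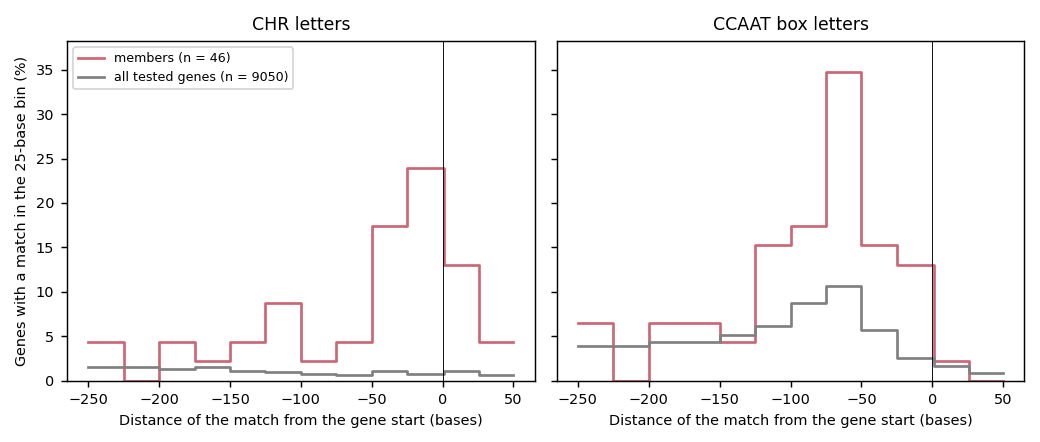
Share of genes (%) with a CHR match (left) or CCAAT box (right) in each 25-base bin, by distance in bases from the gene start, for 46 mitotic regulators (red) and 9050 tested genes (grey). The red line peaks at 23.9% just before the gene start for the CHR and at 34.8% at 51 to 75 bases before it for the CCAAT box.

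Falls occurred both with and without these letters in the window searched, the first listed for each gene. Of the 46 members 12 have several windows, and matches in their other windows are not counted here. The 21 members with both a CHR and a CCAAT box, PLK1, MKI67 and NUSAP1 among them, all fell, with a median log2 difference of -1.0. The 9 members with neither in that window also all fell, with a median of -1.06: ARHGAP11A, CDC25B, CDC25C, CKAP2, LMNB1, MAD2L2, MELK, MYBL2 and TACC3. Of the 10 with a CHR alone 7 fell and 2, ANLN and FZR1, rose (median -0.59), and of the 6 with a CCAAT box alone 5 fell and 1, CDC25A, rose (median -0.91). Among genes that are no members, 431 had both kinds of match, and 45.2% of them were lower with carfilzomib, close to the 44.1% of all 9004 such genes with a window. Their median log2 difference was -0.05, against -0.06. Whether the CHR or the CCAAT box plays a part in any of these falls was not tested. A match is a run of letters in a window and shows no binding, and 12 members had no window here: AURKA, BIRC5, BUB3, FAM83D, FOXM1, PBK, PKMYT1, RACGAP1, TPX2, TROAP, TTK and WEE1.

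Lists of partner genes are read against the shares of all tested genes, 44.9% lower and 36.7% higher. Of the cyclins, CDK1 and the CKS proteins that bind it, CCNA2, CCNB1, CCNB2 and CDK1 fell, CKS2 rose and CKS1B had no call, with log2 differences from -1.92 for CCNA2 to 0.32 for CKS2. CCNA2, the cyclin of S phase and early mitosis, was at 47.1, 46.4 and 48.2 FPKM with DMSO and 12.8, 11.9 and 10.6 FPKM with carfilzomib. All 13 mitotic kinesins fell (median -1.07), from -1.46 for KIF20A, the motor of the central spindle, to -0.27 for KIF14. Of 17 kinetochore genes 14 fell and 2 rose (median -1.0), from -1.74 for CENPA, the centromeric histone, to 0.65 for MIS12.

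Lists with shares nearer to those of all tested genes included the APC/C and cohesin. Of the 14 APC/C subunits 8 fell and 4 rose (median -0.17), from -0.70 for ANAPC5 to 0.77 for CDC26, whereas of its inhibitor and ubiquitin-conjugating enzymes FBXO5 (-1.16) and UBE2C (-0.89) fell and UBE2S, at 0.04, had no call. Of 10 cohesin genes 6 fell and 3 rose (median -0.28), from -0.78 for SMC1A to 0.40 for its unloader WAPL. The 3 condensin II subunits fell, from -1.11 for NCAPD3 to -0.20 for NCAPH2. In the arm through which MASTL restrains PP2A, 1 of 8 genes fell (ENSA, -0.39) and 4 rose (median 0.07, up to 0.87 for PPP2CB).

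Of the DREAM and MuvB subunits, which act on CHR promoters, 7 of 11 fell and 2 rose, with a median log2 difference of -0.22, beside 44.9% lower and 36.7% higher among all tested genes. TFDP1, the partner of E2F proteins, was at 26.2, 27.9 and 27.9 FPKM with DMSO and 7.35, 7.91 and 8.10 FPKM with carfilzomib (-1.69, adjusted p = 6.42e-10). LIN37, a MuvB subunit, was at 6.90, 6.49 and 7.40 FPKM with DMSO and 15.4, 18.0 and 14.7 FPKM with carfilzomib (1.10, adjusted p = 2.94e-07). Neither gene overlapped between the groups. The 3 subunits of NF-Y, which binds CCAAT boxes, differed from -0.47 for NFYB to 0.11 for NFYA, with 2 lower and 1 higher. NFYC, called lower (-0.22, adjusted p = 0.0285 in the limma fit), overlapped between the groups. It was at 7.13, 8.89 and 9.38 FPKM with DMSO and 7.13, 6.99 and 7.11 FPKM with carfilzomib.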

How the data were processed

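RNA sequencing values came from a single table of FPKM (fragments per kilobase of gene, scaled by the library total) that the authors deposited, with 1 column per library. Per the labels' protocols, a mirVana kit gave the RNA and a TruSeq Stranded mRNA kit the libraries. Tools named in the submitters' processing notes, with no role or order, are DESeq2, R 3.2.0, HTSeq, HISAT2 and fastp, and the build named is the mouse's GRCm39, although the rows carry human symbols, so no coordinates were taken from the table. Groups came from the treatment labels. In 19018 of 19021 rows (99.98%) the FPKM values correspond to whole reads, to a tolerance of 1e-05 reads, which gave the library totals; no member was among the other rows. Rows averaging at least 1 FPKM were tested with limma 3.58.1 in R 4.3.3 (lmFit, eBayes with a mean-variance trend, two-sided) on log2(FPKM + 1), a scale that understates changes of low genes, with Benjamini-Hochberg adjustment over all 11153 tested genes and calls at 0.05. Ratios of 10 related gene pairs were given exact two-sided permutation tests, which cannot go below p = 0.1. Every library's value is given for the 2 largest falls in each role, for members that rose or had no call, and for genes of the pairs; of other lists the extremes are named. CCNB1, CCNB2, CDK1, CKS1B, FBXO5, UBE2C and UBE2S were named after their values were seen. Some markers are not reported here. Members and lists were chosen with earlier results of these data known. The promoter window first listed for each gene was searched. Alternatives were other pseudocounts, filters and scalings, limma-voom on the recovered reads, the replicate number as a term, and each library left out.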

Additional observations from a re-analysis of the deposited data

How the results depend on the processing

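Over 14 alternatives for each of the 58 mitotic regulators, 808 of 812 values kept their direction and their side of the threshold, and 56 members did so in all of them. The members' median log2 difference of -0.94 became -1.05 with a pseudocount of 0.1, -0.73 with a pseudocount of 5, -0.86 with median-of-ratios scaling, -0.90 with quantile normalization and -1.06 with limma-voom on the recovered reads. With each library left out it ran from -0.96 to -0.93, with 54 to 55 members lower, 2 to 3 higher and 8782 to 8976 of all genes called, against 9096 with all libraries and 9185 with limma-voom on the recovered reads. The members at least 2-fold lower numbered 26, but 12 with a pseudocount of 5, 30 with a pseudocount of 0.1 and with limma-voom, 19 with median-of-ratios scaling and 23 with quantile normalization. CDCA5 turned from -0.08 to 0.0085 with median-of-ratios scaling, under which the median of all tested genes was 0.01 instead of -0.07. CDCA5 passed as lower without carfilzomib replicate 2, and CDC25A lost its call without that library or DMSO replicate 1. With a pseudocount of 5, ARHGAP11A, CDC25C, ESPL1, GTSE1, NEK2, PKMYT1, PLK4, SGO1 and SGO2 kept their calls with falls more than 1.5 times smaller, from -0.86 for ESPL1 to -0.27 for SGO2. The change in the CDC25B to CDC25C log2 ratio turned from 0.15 to -0.11 with a pseudocount of 5 and was 0.28 with a pseudocount of 0.1. The cause was not tested in any of these. With the replicate block, 9054 genes were called and the members gave the same counts, 54 lower and 3 higher, and the same median of -0.94. Same-numbered libraries had correlations of -0.01, -0.003 and 0.01 between their deviations, so the numbers were not treated as pairs. With 3 libraries a group and no dose series, the tests cover only this 1 time point.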
